A study of Drosophila pseudoobscura with 29 samples.

Results

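The genes described here were the 150 whose transcript level varied least from hour to hour through the embryogenesis of the fly Drosophila pseudoobscura. They were chosen from the 2745 genes with a mean of at least 50 RPM (reads per 1000000 reads), out of 8466 genes measured. Embryos of the wild-type strain sequenced for the reference genome of the species, untreated and collected from population cages, were pooled and frozen whole in 29 windows of 1 h, the first at 0-1 h and the last at 28-29 h after egg laying. Each window had 1 library of RAMPAGE, a method that sequences the 5′ ends of capped RNA, so that reads mark transcription start sites. There were no replicates, and a difference between 2 windows therefore had no replicate check.

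For each gene the coefficient of variation (CV, the standard deviation of RPM divided by its mean) was computed over 28 windows, without the 27-28 h library, which held 1011 reads. The 150 lowest values chose the genes, so their CV and their RPM profiles are given below as a description, with no test. The tables identify genes by FlyBase numbers without gene names, and no name or function is given for them here. The label of the set as the steadiest genes is a statement about shares of a library, and it depended on how the libraries were scaled, as described further on. Whole embryos contain all tissues, and fewer cells of one type cannot be told apart from less RNA per cell.

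A gene that keeps a constant level in such a series has to bridge different sources of RNA. The egg receives its first transcripts from the mother, many of these are cleared after the embryonic genome is switched on, and later RNA comes from a growing number of specialised cells. Genes for functions that every cell needs are commonly called housekeeping genes, and they are often used as a standard against which other genes are measured. In flies, such genes are known to start transcription over a broad stretch of positions more often than tissue-specific genes do.

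The CV of the 150 genes lay between 0.105 and 0.273, with a median of 0.242, against a median of 0.519 over all 2745 ranked genes. Their highest window was a median of 2.77 times their lowest, against 8.46 times over the ranked genes. In 11 of the 150 the whole course stayed within 2-fold, in 93 within 3-fold and in 144 (96%) within 5-fold, and of all ranked genes 22.0% stayed within 5-fold. Of the 4200 values of the 150 genes, 90.6% were within 1.5-fold of the gene's own mean, against 50.8% of the values of the ranked genes. The 150 genes exceeded that range in 85 values and fell below it in 309, and 14 of them never left it. In RPM the lower limit of the range lies nearer to the mean than the upper. A choice by low CV therefore leaves more room below, and nothing is read from this difference.

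FBgn0035021 was the steadiest gene, with a CV of 0.105, and it was also the most abundant of the 150. It had 3810 RPM in its lowest window (20-21 h), a median of 4799 RPM and 5578 RPM in its highest window (16-17 h), a range of 1.46-fold. FBgn0002607 followed with a CV of 0.136 at a much lower level, between 123 and 212 RPM around a median of 164 RPM. FBgn0031980 had a CV of 0.151, with 208 RPM at the lowest, a median of 284 RPM and 380 RPM at the highest. These genes differed in level by over an order of magnitude, and FBgn0035021 and FBgn0031980 were highest in the same window, 16-17 h.

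The next genes in this order were FBgn0011272, FBgn0029897, FBgn0013325, FBgn0017579, FBgn0001105, FBgn0033972 and FBgn0013347, with CVs between 0.161 and 0.183. FBgn0017579 was the most abundant of these. It had 1017 RPM at its lowest (1-2 h), a median of 1363 RPM and 1848 RPM at its highest (28-29 h). FBgn0033972 was the least abundant, with 38.3 RPM at its lowest, a median of 56.6 RPM and 75.7 RPM at its highest. The main start site cluster (TSC, a group of neighbouring start sites that stands for 1 promoter) of FBgn0002607 was 105 bp wide and lay at chr3:1963506-1963610 on the minus strand (FlyBase r2.9), and that of FBgn0031980, on chromosome 4, was 125 bp wide.

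The threshold separated genes that barely differed. FBgn0027093 was the last gene inside, with a CV of 0.27315, and FBgn0064116 was the first outside, with 0.27315 to the same 5 digits. The next genes outside, FBgn0043458 and FBgn0027549, had CVs of 0.2735 and 0.2741. FBgn0064116 and the gene FBgn0064117, inside at 0.2729, were both counted from 1 TSC of 269 bp on the X arm XL, so that the threshold ran between 2 identifiers of the same reads. In the same way FBgn0039857, FBgn0029131 and FBgn0029833, all inside, held in common the 39062 reads of 1 annotated gene. These were all reads of FBgn0039857 and 87.1% and 89.0% of the reads of FBgn0029131 and FBgn0029833, so their 3 profiles are not independent of each other.

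**Figure D1:**
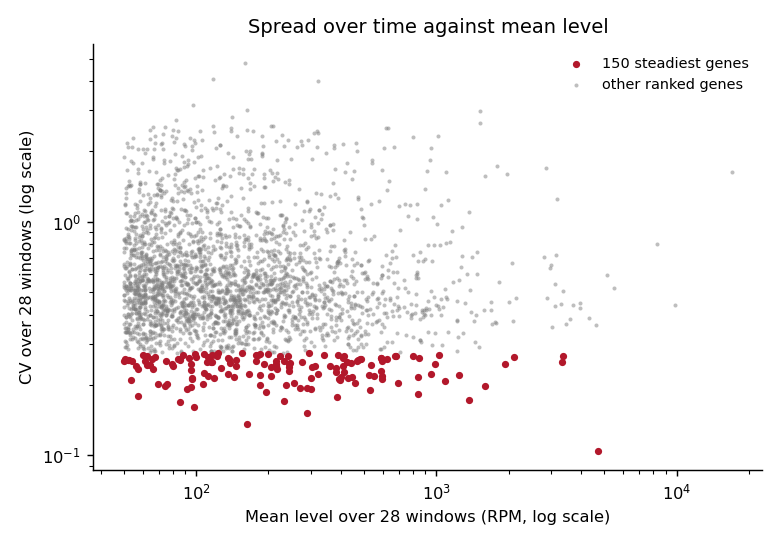
Each point is 1 of the 2745 ranked genes, with its mean RPM over 28 windows on the x axis (log scale) and its CV over the same windows on the y axis (log scale). The 150 steadiest genes (red) occupy the lower edge at CVs of 0.105 to 0.273 at nearly all levels, and the single red point near 4689 RPM is FBgn0035021.

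The 150 genes were more abundant than the ranked genes as a whole, with a median of the mean level of 215 RPM against 125 RPM. Their means ranged between 50.1 and 4689 RPM. Of the 687 most abundant ranked genes (over 237 RPM), 69 (10.0%) were among the 150. Of the 686 least abundant (under 74.0 RPM), 19 (2.77%) were, and of the 2 groups of 686 between them 30 (the upper) and 32 were.

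Read depth set part of this spread. The 28 libraries held 723775 to 11862896 reads in TSCs, and 1 read was worth 0.0833 to 1.37 RPM in the gene table. The variance that counting reads alone would give was a median of 4.08% of the variance of the 150 genes, against 1.14% over the ranked genes, and it reached 27.0% in FBgn0033972. After that variance was subtracted, the median CV of the 150 genes was 0.236, against 0.515 over the ranked genes. Most of the remaining hour-to-hour movement of these genes was therefore larger than the counting error, and it includes differences between libraries, which without replicates cannot be told apart from differences between hours.

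The 150 genes together took 4.98% to 6.67% of all reads in each of the 28 libraries, with a median of 5.96%. The lowest share was at 20-21 h and the highest 2 windows later, at 22-23 h. Their levels also moved together. The median RPM relative to each gene's own mean was 0.835 at 20-21 h, 0.871 at 21-22 h and 1.11 at 22-23 h, and its highest value was 1.13, at 16-17 h. The 20-21 h library was the lowest window of 14 of the 150 genes, the most of any window. Of the ranked genes, 5.94% were lowest there. None of the 150 was highest at 20-21 h, nor at 15-16 h, 17-18 h, 18-19 h, 21-22 h or 24-25 h. The 20-21 h library had 726088 reads, the second fewest of the 28. The 5-6 h library was the highest window of 20 of the 150 genes and of 5.50% of the ranked genes.

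**Figure D2:**
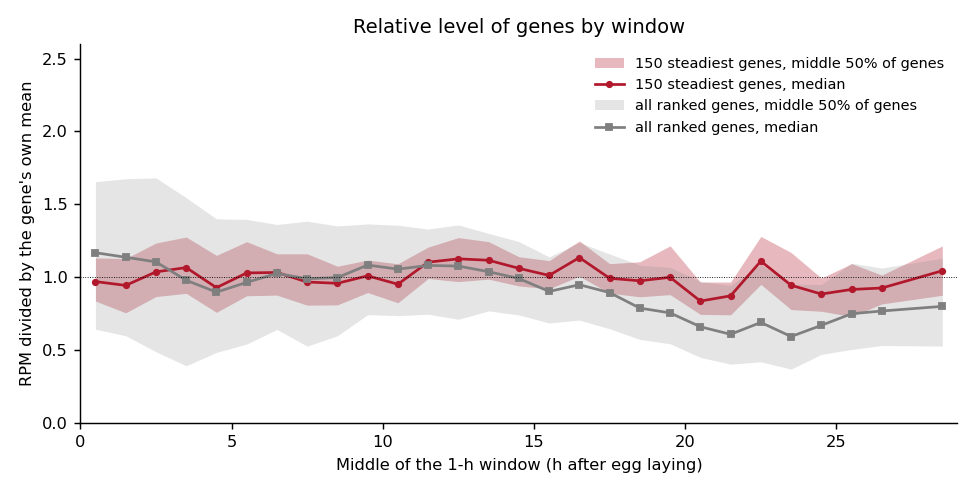
The y axis gives RPM divided by the gene's own mean over 28 windows, and the x axis the middle of each 1-h window. Lines are medians and bands the middle 50% of genes, for the 150 steadiest genes (red) and for all 2745 ranked genes (grey). The red median stays between 0.835 and 1.13, while the grey median is 1.17 in the first window and 0.592 at 23-24 h.

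The windows were also divided into the first 10, the next 9 and the last 9. These means come from the values that chose the genes and are a description. Of the 150, 47 had their highest mean in the early, 69 in the middle and 34 in the late windows. Of the ranked genes, 1493 were highest early, 732 in the middle and 520 late. The highest of these 3 means was a median of 1.25 times the lowest in the 150 genes, against 2.30 times in the ranked genes. In 66 of the 150 (44%) the 3 means lay within 1.2-fold, against 5.10% of the ranked genes, so the highest period of many of them was highest by little. In RPM, the log2 ratio of the last 5 to the first 5 windows had a median of -0.09 over the 150 genes, with 66 higher late and 84 lower late, and of -0.69 over the ranked genes. With the other scalings tried the direction turned, as follows.

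The scaling of the libraries decided these directions. RPM divides by all reads. The 10 most abundant genes took 5.39% of the reads at 0-1 h, 11.4% at 23-24 h and 13.7% at 24-25 h. Whether this share accounts for the size factors that follow was not tested. When each library was instead divided by a median-of-ratios size factor over 5324 genes detected in all 28 windows, the size factors relative to RPM lay at a log2 value of 0.62 in the first library and -0.56 at 23-24 h. On that scale the median log2 ratio of the last 5 to the first 5 windows was 0.58 in the 150 genes, of which 143 were higher late, and -0.01 in the ranked genes, a shift of the median of all ranked genes by over 0.1. Upper-quartile scaling gave 0.61 in the 150 genes, of which 143 were higher late, and 0.00 in the ranked genes. The difference between the medians of the 150 and the ranked genes was 0.60, 0.59 and 0.61 under the 3 scalings. A scaling moves all genes of a library alike, so this near equality carries no further information, and a low CV in RPM itself keeps the RPM ratio of a gene close to 1.

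**Figure D3:**
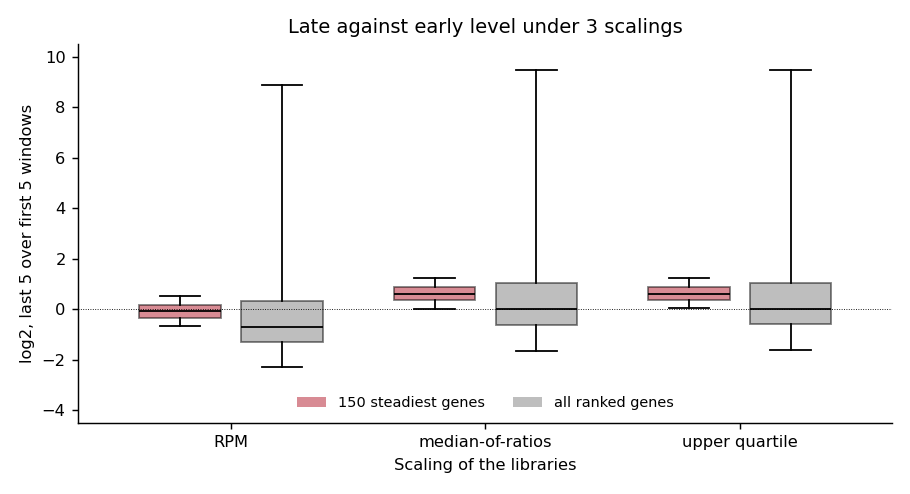
The y axis is the log2 ratio of the mean of the last 5 windows to the mean of the first 5, under 3 scalings of the libraries. Boxes show the median and the middle 50% of genes and whiskers the 5th and 95th percentiles, for the 150 steadiest genes (red, left in each pair) and all 2745 ranked genes (grey). The red median is -0.09 in RPM, 0.58 with median-of-ratios and 0.61 with upper-quartile scaling, and the grey median lies 0.60, 0.59 and 0.61 below it.

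Membership depended on the scaling to the same degree. When the ranking was repeated on median-of-ratios values, 44 of the 150 genes were again among the 150 lowest CVs, and with upper-quartile values 56 were. FBgn0035021 ranked seventh of all ranked genes by CV on median-of-ratios values, whereas FBgn0002607 and FBgn0031980 ranked 301 and 359. Of the 10 genes with the lowest CV, 5 remained among the 150 under rescaling to the sum of the gene table, median-of-ratios and upper-quartile scaling alike. These were FBgn0035021, FBgn0011272, FBgn0001105, FBgn0033972 and FBgn0013347, of which none but FBgn0035021 was among the 5 most abundant. Leaving out any 1 of the 28 libraries kept 135 to 146 of the 150, and 123 were kept every time.

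A smooth course over time was fitted to all genes (natural cubic spline of the hour, limma on log2(RPM + 1), F-test adjusted over all genes). It called 63 of the 150 genes time-dependent, beside 91.2% of all 8445 genes tested. Of the 150, 26 ended higher and 37 lower, beside 40.8% and 50.5% of the genes tested. The choice of genes used these same values, so nothing is read from these differences. The number called and the direction moved with the scaling and the test. After median-of-ratios scaling limma called 121 of the 150, beside 84.4% of all genes, with 116 ending higher and 5 lower (52.7% and 31.7% of all genes). On recovered reads edgeR called 77, beside 89.2% of the 7989 genes tested, with 60 ending higher and 17 lower (46.3% and 43.0%). DESeq2 called 135, beside 87.1% of the 8464 genes tested, with 127 ending higher and 8 lower (55.3% and 31.9%). The fitted difference between the last and the first window was between -1.25 and 1.21 on the log2(RPM + 1) scale over the 150 genes, against -7.16 to 14.31 over the ranked genes.

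The genes with the largest fitted differences among those called are given as a description, since the fit used the values that chose them. FBgn0015288 ended highest relative to its start, with a fitted difference of 1.21 ± 0.36 (SE). It had 267 ± 27.0 RPM in the last 5 windows, against 146 ± 26.6 RPM in the first 5 (SD over windows). The last 5 windows held 226 to 296 RPM and the first 5 held 117 to 175 RPM, and these ranges did not overlap. With median-of-ratios scaling the fitted difference was 1.92. That scaling raises the fitted difference of all genes by nearly the same amount, so a rise in RPM could not turn. FBgn0033519, at a mean of 674 RPM, had a fitted difference of 1.15 ± 0.35 (SE), although its last 5 windows, at 524 to 887 RPM, overlapped the first 5, at 370 to 878 RPM. The fitted difference compares only the ends of the curve. By period the gene had 666 ± 173 RPM early, 754 ± 177 RPM in the middle and 602 ± 176 RPM late (SD over windows). Its late mean was thus below its early mean.

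In the other direction, the largest fitted difference, -1.25 in FBgn0027052, was not called. Of the genes called, FBgn0262871 had a fitted difference of -1.23 ± 0.31 (SE). It had 78.9 ± 21.3 RPM in the last 5 windows, against 104 ± 21.4 RPM in the first 5. The last 5 windows held 58.1 to 111 RPM and the first 5 held 80.1 to 122 RPM, and these ranges overlapped. FBgn0013749, at a mean of 223 RPM, had a fitted difference of -1.15 ± 0.31 (SE), and its last 5 windows, at 98.3 to 167 RPM, lay below all of the first 5, at 174 to 267 RPM. FBgn0262871 and FBgn0013749 were also lower in the last window with median-of-ratios scaling, by a smaller amount (-0.53 and -0.44).

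Sharp drops confined to a single window occurred in these otherwise level profiles too, though less often than in the ranked genes. In 31 of the 150 genes (20.7%) at least 1 window lay below 1/2 of both its neighbours, for a total of 35 such dips. A window above 2 times both neighbours was found in 2 genes (1.33%). Among the ranked genes 1367 (49.8%) had a dip and 450 (16.4%) such a rise, or spike. The choice by low CV works against both, and more strongly against spikes, so nothing is read from these differences. FBgn0029785 had the deepest dip, with 39.0 RPM (245 reads) at 8-9 h between 406 RPM at 7-8 h and 582 RPM at 9-10 h. Without that window its CV was 0.182 instead of 0.258.

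Such dips also struck highly abundant genes, where counting error is small. FBgn0010265, with a mean of 3346 RPM, had 741 RPM (5323 reads) at 16-17 h, between 4230 RPM at 15-16 h and 3886 RPM at 17-18 h. FBgn0261597, with a mean of 3354 RPM, dipped to 775 RPM at 12-13 h and to 1362 RPM at 16-17 h, and the windows around them held 3042 to 3717 RPM. FBgn0003660 had 39.9 RPM at 19-20 h, between 191 and 171 RPM, but this was 32 reads.

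The dips were spread over 17 of the 26 windows that have a neighbour on each side in the series. For this, 28-29 h was taken as the window after 26-27 h. There were 5 dips at 12-13 h, 4 at 2-3 h and 4 at 19-20 h. Of the ranked genes, 6.16%, 4.63% and 4.15% had a dip in these windows, so nothing is read from the counts. In the 33 dips of genes that could be tied to TSCs, the main TSC itself was below 1/2 of the mean of its neighbours each time. The main TSC holds most of the signal of most of these genes, so this largely follows from the definition of a dip. In 12 of these dips the other TSCs of the gene summed to over 2 RPM in both neighbouring windows together, which can be few reads. They were below 1/2 in 7 of the 12, with FBgn0033699 counted at 8-9 h and again at 19-20 h. In FBgn0038834, for example, they had 0 RPM at 14-15 h, where 1 read was worth 0.743 RPM. These counts are too small to show whether the other TSCs dipped too. Genes with a dip had a median main TSC width of 155 bp (29 genes), against 125 bp in those without one (111 genes), at mean levels with medians of 216 and 206 RPM. The 9 tied genes with a dip below 1/3 of its neighbours had main TSCs of 88 to 354 bp, with a median of 323 bp, and a higher median mean level of 549 RPM. These groups were set apart by the measured profiles, so no test is given, and whether a dip belonged to the embryos or to 1 library was not tested.

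**Figure D4:**
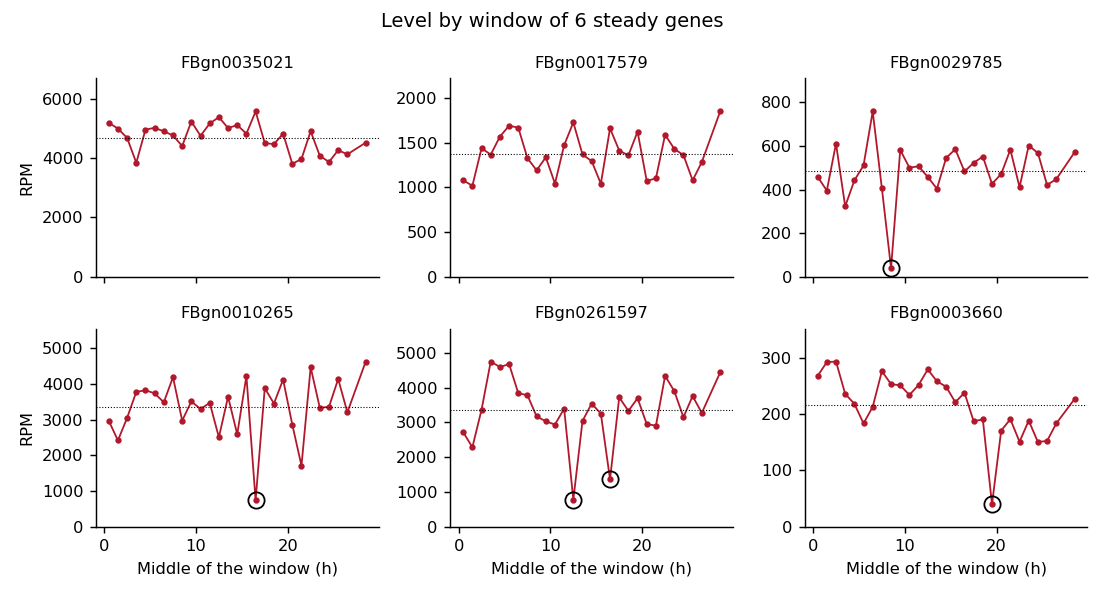
RPM (y axis) in each of the 28 windows (x axis, middle of the window) for 6 of the 150 genes, with the gene's mean as a dotted line and single-window dips circled. FBgn0035021 and FBgn0017579 (no dip) range over 1.46-fold and 1.82-fold, while FBgn0029785, FBgn0010265, FBgn0261597 and FBgn0003660 fall to between 0.0804 and 0.231 of their mean in the deepest circled window and return in the next.

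Properties of the promoters were not used to choose the genes. By their reads in all 29 libraries, 140 of the 150 genes could be tied to the TSCs of an annotated D. pseudoobscura gene (109 exactly and 31 within 5%), as could 2392 of the 2595 other ranked genes. FBgn0035021 could not. Values below compare the 140 with these 2392 and, since genes are not replicates, are a description.

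The signal of most of the 140 tied genes came largely from 1 TSC, as it did in the other ranked genes. Exactly 1 TSC was found in 62 genes (44.3%) and several in 78 (55.7%), against 36.8% and 63.2% of the other ranked genes. The main TSC held at least 90% of the signal in 120 (85.7%), against 81.9%. The main TSC had a median width of 130 bp, against 120 bp in the others. The range of mean RPM of the 150 held 2386 of the 2392 other genes, with the same median width. That range is therefore no check of level. Among genes with at least 200 RPM the medians were 146 and 148.5 bp, so the 10 bp difference was not seen in abundant genes. At the narrow end the sets differed more. None of the 140 main TSCs was under 50 bp wide, whereas 153 of the others (6.40%) were. For a random draw of genes, a count of 0 of 140 would allow a share of up to 2.14%, but the 140 were not such a draw.

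In some genes the second TSC varied more than the gene. At least 2 TSCs with 10% or more of the signal were found in 15 genes (10.7%), against 15.6% of the other ranked genes. In these 15 the CV of the main TSC had a median of 0.268 and that of the second TSC 0.569, while the CV of all TSCs of the gene summed had a median of 0.241. The main TSC alone had a higher CV than the sum in 12 of the 15, against 268 of the 374 such genes among the others, whose medians were 0.589 for the main TSC and 0.533 for the sum. Because the sum is the level of the gene, its low CV is what chose these genes, and nothing is read from its being lower than the CV of its parts.

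FBgn0035400 had the largest change in the share of the main TSC among the 140. Its main TSC, 158 bp wide at chrXR_group8:4007329-4007486 on the minus strand, averaged 204.7 ± 62.6 RPM in the last 14 windows, against 313 ± 88.1 RPM in the first 14. Its second TSC averaged 75.9 ± 35.9 RPM late, against 1.57 ± 2.46 RPM early, with 0 RPM at 0-1 h and its highest value of 131 RPM at 22-23 h. The gene as a whole had 304 ± 63.1 RPM late and 321 ± 87.4 RPM early (SD over 14 windows each). The share of the main TSC was thus 66.7% late, against 96.4% early, in a gene whose CV was 0.241 and whose 2 main TSCs had CVs of 0.360 and 1.17.

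A few others shifted in the same manner. The main TSC of FBgn0262871 held 79.2% late, against 99.6% early, and that of FBgn0031474 58.3% late, against 79.1% early. In FBgn0039492 it was the second TSC that declined, to 23.5 ± 11.0 RPM late, against 50.2 ± 21.3 RPM early, while the main TSC held at 79.0 ± 13.6 RPM late and 79.8 ± 17.0 RPM early. A change of over 10 percentage points in the share of the main TSC was found in 6 of the 140 genes (4.29%), against 9.32% of the other ranked genes.

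**Figure D5:**
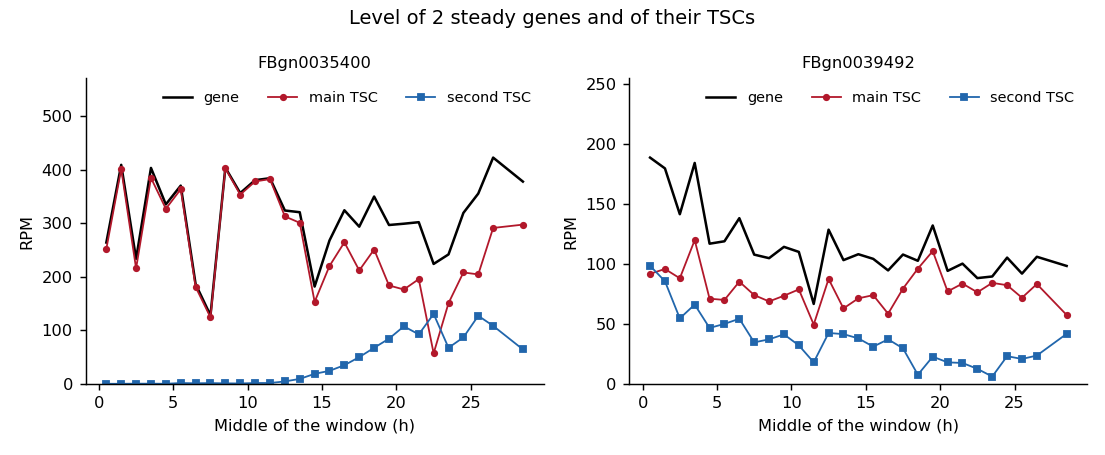
RPM (y axis) by window (x axis, middle of the window) of 2 of the 150 genes (black) and of their main (red) and second (blue) TSC. In FBgn0035400 the second TSC averages 1.57 RPM over the first 14 windows and 75.9 RPM over the last 14 while the gene varies between 128 and 423 RPM around its mean of 313 RPM, and in FBgn0039492 the second TSC is highest at 0-1 h (98.5 RPM) and declines.

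The regions next to the promoters were also compared. A TSC on the opposite strand that pointed away lay within 1000 bp of the main TSC in 68 genes (48.6%), against 43.9% of the other ranked genes. Where that partner averaged at least 10 RPM, its own CV had a median of 0.505 (34 partners), against 0.522 (487 partners of the other genes). Both medians were close to that of all ranked genes (0.519), though those are whole genes with at least 50 RPM and the partners single TSCs. The 150 genes were chosen for the lowest CVs, so nothing is read from the partners lying above them.

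The genes lay on all the large chromosome arms. Of the 140, 27.1% were on chromosome 3, 19.3% on chromosome 4 and 18.6% on chromosome 2, against 19.9%, 18.1% and 22.7% of the other ranked genes. The X arms held 25.0% of them (10.7% on XL and 14.3% on XR), against 35.8% of the others (16.2% and 19.6%). Scaffolds not placed on a chromosome held 10.0%, against 3.51%.

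The 27-28 h library had no part in the choice of the genes, and it was too shallow to give single genes. Of its 1017 reads, 43 were from the 150 genes, a share of 4.23% (exact Clopper-Pearson 95% interval 3.08% to 5.65%). That interval reaches into the range of 4.98% to 6.67% of the other 28 libraries but lies below their median of 5.96% and below the 6.43% of the 28-29 h library. Of the reads counted in the gene table alone the share was 5.41% (3.94% to 7.22%), against 6.15% to 8.99% in the others, whose median of 7.49% lies above that interval. A read was found for 33 of the 150 genes, with 4 for FBgn0010265 as the most, and none for 117, which allows each of those up to 2950 RPM.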

How the data were processed

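RAMPAGE libraries of 29 windows of D. pseudoobscura embryos were barcoded at reverse transcription, pooled and sequenced on 1 lane. The authors aligned reads with STAR (version not given in the sources used here) to FlyBase r2.9, called TSCs on the pooled series, removed those over ribosomal DNA, and deposited RPM for 26066 TSCs and 8466 genes. The deposited table of smoothed z-scores and the score of the deposited TSC intervals were not used.

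Groups were the windows given by the labels, 1 library each. Whole reads were recovered from the RPM steps: in the 28 libraries used, 100% of values gave a whole number to a tolerance of 0.1. The 28 libraries hold 723775 to 11862896 reads in TSCs and the 27-28 h library 1011. The tables carry no molecular identifiers, so intervals and the limit of 3 reads for a count of 0 cover counting error only.

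Genes were ranked by CV over 28 libraries (Python 3.11.15, pandas 2.3.3) with a mean minimum of 50 RPM. For time-dependence, limma 3.58.1 in R 4.3.3 (trend option) fitted log2(RPM + 1) by a natural cubic spline of the hour (5 degrees of freedom), for genes that reached 1 RPM in some window. F-test p-values were adjusted by the Benjamini-Hochberg method, and genes under 0.05 were called. The error of the fit is the deviation of single libraries from the fitted curve, as no window had replicates. The recovered reads were tested with edgeR 4.0.16 and DESeq2 1.42.0 as alternatives. On reads simulated for the time-dependence fit, limma recovered 20 of 100 genes changed by a log2 value of 1 and 95 of 100 changed by 2, with 13 false calls among 8406 genes tested. Only these genes were changed, in a straight line over the hours, with the same setting of scatter for all genes. In the data 91.2% of the genes were called, so these rates need not hold for the calls above.

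The identifiers of the gene table differ from those of the TSC table, and genes were tied to TSCs where the reads agreed in all 29 libraries, exactly or within 5%. Genes to name came from a rule: the 10 lowest CVs, the 5 highest means, the genes at the threshold, the largest ranges, fitted changes and promoter shifts. Not all of them were described: FBgn0027619 and FBgn0004921 (high means), FBgn0001942 (promoter shift) and some genes at the threshold were left out. Of the fitted changes, the 2 largest called in each direction and 1 that was not called are named. Examples of dips beyond these were chosen after their values were seen, as was the definition of a dip. The genes and lists were chosen with earlier results of these data known. Lists of gene families, marker genes and promoter motifs could not be applied, since the sources used here do not pair these identifiers with names or with sequences. Other scalings, measures of spread, level minimums and libraries were tried as alternatives.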

Additional observations from a re-analysis of the deposited data

Results flagged for a closer look

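Reads of the 150 genes in the 27-28 h library were seen in data that no comparison above used to choose them. They numbered 43, of 1017 reads in all. This is above the limit of 3 reads that a count of 0 allows, which says only that these genes had reads there. The share itself, 4.23%, was below that in each of the other 28 libraries (4.98% or more). Groups of 1 library allow no check for a sample far from its replicates.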

How the results depend on the processing

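No paired analysis was possible because each window had 1 library. Of the 150 genes, 44 were kept with median-of-ratios scaling, 56 with upper-quartile scaling and 85 when the median absolute deviation over the median replaced the CV. The other settings tried for the ranking kept 111 to 146, and leaving each gene's lowest window out, an alternative added after the data were seen, kept 137. Leaving out 1 library kept 135 to 146. The median CV was 0.315 with all 29 libraries, 0.296 with median-of-ratios scaling and 0.237 to 0.246 without 1 library. The median range was 3.58-fold with median-of-ratios scaling and 2.68 to 2.77-fold without 1 library. With all 29 libraries it had no value, since 117 of the genes had no read in the 27-28 h library. The limma count of 63 time-dependent genes was 38 with a straight line, 14 with all 29 libraries, 121 and 113 with median-of-ratios and upper-quartile scaling, 135 with DESeq2 and 54 to 68 without 1 library. For the ranked genes it was 2459 to 2497 without 1 library, beside 2494. The share of reads had a median of 7.49% of the gene table in place of 5.96% of all reads. The cause of these moves was not tested, except that the 27-28 h library adds values worth 983 RPM a read. Promoter share, width and X share moved by less than the spread over the genes or their counting interval in each alternative tried. For width and promoter share that spread was wide, 115 bp for a difference of 10 bp and 8.74 percentage points for a share of 99.8%. It could hardly be passed, and among genes of at least 200 RPM the width difference changed sign, to -2.5 bp. The search for promoter motifs was not run. One library per window limits all statements on single windows.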
